A study of Saccharomyces cerevisiae with 116 samples.

Results

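HH1 is a euploid mutation accumulation line of diploid budding yeast, read in 3 colonies among the 116 libraries of the study. In such an experiment, lines from 1 ancestor are carried through repeated single-colony transfers so that most new mutations are kept. The lines called HH descend from a homozygous S288C derivative that is ho and ade2 and carries the alleles lys2-801 at LYS2, his3-delta-D200 at HIS3, leu2-3.112 at LEU2 and ura 3-52 at URA3, all shared by HH1, its controls and the ancestor. They were kept apart for 2063 generations, with 100 transfers at intervals of 48 h on rich glucose plates. HH1 was set against the 8 other euploid HH lines whose libraries carry names in SC (HH2, HH3, HH4, HH5, HH7, HH8, HH11 and HH28, 24 libraries) and against the HH ancestor as read in run 1 (3 libraries). Colonies were grown in liquid rich glucose medium at 30 °C for 24 h and then for 6 h into log phase before total RNA was taken. Every colony of HH1 comes from the same line, so a difference from the controls is that of 1 line.

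In budding yeast, the MAT locus sets the cell type. Cells of type a express a1 from MAT, and cells of type alpha express alpha1, an activator of alpha-specific genes, and alpha2, a repressor of a-specific genes. In an ordinary diploid that carries both alleles, a1 and alpha2 together repress alpha1 and a group of haploid-specific genes, which includes parts of the pheromone signalling pathway and the meiosis repressor RME1. Silent copies of the alpha and a genes lie at HML and HMR near the ends of chromosome III and are kept off by the Sir proteins, which also silence genes close to telomeres.

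The HH1 libraries held 5053403 to 6670648 reads in genes and those of the control lines 4169299 to 9938460. Chromosome medians of HH1 relative to the control lines lay between -0.06 and 0.08 on the log2 scale in every colony. The parts of chromosome III to the left and right of MAT lay between -0.08 and 0.03. The colonies of HH1 differed among themselves with gene length. Across 5417 genes, Spearman's rho of a library's level relative to the controls with length was -0.63 in colony 1, 0.00 in colony 2 and 0.50 in colony 3, against -0.47 to 0.36 in the control libraries. For the summed line the rho was -0.01. Among the controls HH4 stood apart. The same test called 817 genes (13.1%) for HH4 against the other 8 lines.

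The a1 transcript was not detected in HH1. In the R64 reference the only copy of a1 is HMRA1 (chromosome III:293835-294321, plus strand), so reads of a1 from a MATa allele are counted there, and all of its 75-base windows are unique in the genome. Its first 75 bases are shown because no read of this transcript was found in the line, with the start codon in capitals.
HMRA1, chrIII:293835-293909, plus strand: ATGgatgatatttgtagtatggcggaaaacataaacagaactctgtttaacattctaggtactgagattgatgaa

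HMRA1 had 0 reads in all 3 HH1 colonies, out of 17828868 reads in genes. In the 24 control libraries it had 360 to 1872 reads, or 62.2 to 191 CPM (reads scaled to the library's total of reads in genes), and the 8 control lines averaged 154 ± 11.7 CPM (SD, n = 8). The ancestor had 173, 151 and 233 CPM. With 3 reads over the 3 colonies as the limit that a count of 0 allows (0.168 CPM, counting error only), a1 was at least 914-fold lower than in the control lines and at least 1100-fold lower than in the ancestor. None of the other 113 libraries was at 0. The fewest reads in any of them were 231, and the lowest level was 26.1 CPM in HH152 replicate 3. The markers set for this comparison ask that an a/alpha diploid expresses a1 and does not express the a-, alpha- and haploid-specific lists. The control lines held reads of such genes, with averages of 49.3 CPM for SAG1, 51.4 for STE6 and 27.9 for STE4. Cells of type a also express a1, and in HH1 this transcript was not detected. The feature YCR097W-A, which has no position in R64 under that name, also had 0 CPM in every HH1 colony. In the controls it had 0.145 to 1.75 CPM (edgeR, adjusted p = 0.0199). Its call was lost under 4 alternatives (adjusted p 0.0503 to 0.145). MATALPHA1, MATALPHA2, HMLALPHA1, HMLALPHA2 and HMRA2 have no unique 75-base window and were listed at 0 in every library, so the transcripts of the alpha allele were not measured, and DNA at MAT was not analysed here.

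Across all genes, the line-level comparison called 36 of 6253 genes (0.576%), 33 of them higher in HH1 (0.528%) and 3 lower (0.048%). It used edgeR's quasi-likelihood test on counts summed over the colonies of a line, with HH1 as 1 line against 8 and its own spread taken to be that of the controls. A gene is called where the Benjamini-Hochberg adjusted p over all genes is under 0.05. Of the 36, 14 belonged to the lists of MAT, a-specific, alpha-specific and haploid-specific genes, 1 to the meiosis list, and 21 to none of these lists. In 33 of the 36, all 3 colonies lay beyond all 24 control libraries, as they did above the controls for 0.896% of all genes tested and below them for 0.144%. The same test called 0 genes for HH5 and for HH28, where 432 (6.91%) and 119 (1.9%) had an unadjusted p under 0.05, against 287 (4.59%) for HH1. Those tests kept both HH1 and HH4 among the controls, so their counts are not on equal terms with that of HH1. Of the control lines only HH4, HH5 and HH28 were run in this way. Without HH4 among the controls the count for HH1 was 69, including all 36, and with DESeq2 it was 61, including 35.

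**Figure D1:**
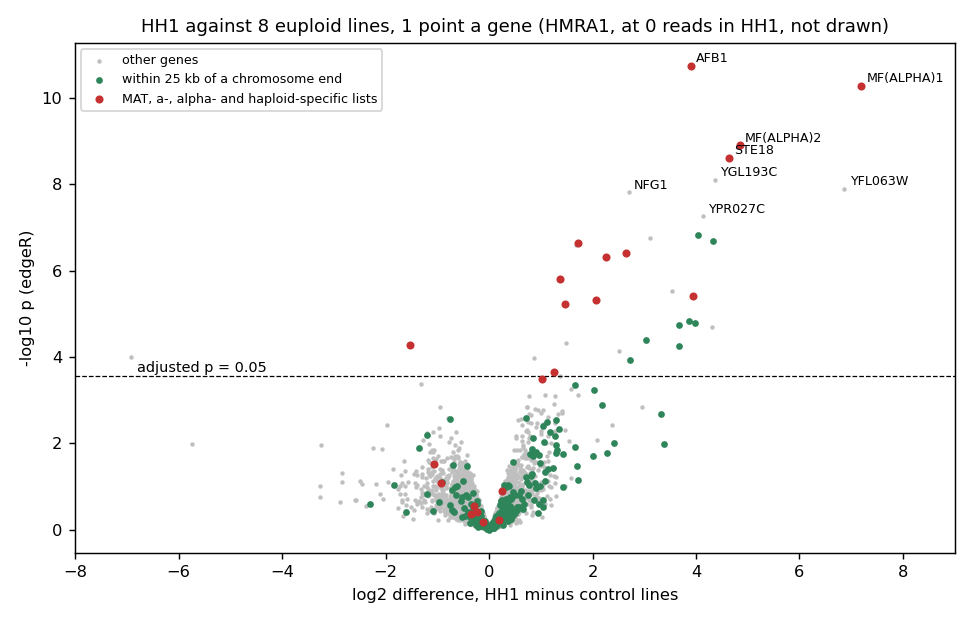
The log2 difference of HH1 from the 8 control lines (horizontal axis) is plotted against -log10 of the unadjusted edgeR p (vertical axis), 1 point a gene, with genes of the 4 mating lists in red, genes within 25 kb of a chromosome end in green and the dashed line at an adjusted p of 0.05. Of the 36 called genes 33 were higher in HH1, with AFB1 and MF(ALPHA)1 at the top, and HMRA1 is left out because a fitted fold change against 0 reads is no bound.

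All 5 alpha-specific genes rose in HH1. MF(ALPHA)1, the major gene of the alpha-factor precursor, had 1370, 387 and 722 CPM in colonies 1, 2 and 3, against a lowest, median and highest of 1.92, 5.07 and 9.76 CPM in the control libraries. The log2 difference was 7.19 ± 0.29 (SE; edgeR, adjusted p = 1.65e-07). Its 3 colonies did not overlap the controls, although they were far apart from each other. MF(ALPHA)2, the minor alpha-factor gene, had 222, 61.9 and 29.3 CPM against 1.29, 3.51 and 8.82 CPM, a log2 difference of 4.84 ± 0.27 (edgeR, adjusted p = 1.97e-06). AFB1, a secreted barrier against a-factor, had 128, 158 and 134 CPM against 5.6, 8.66 and 15.7 CPM, a log2 difference of 3.90 ± 0.14 (edgeR, adjusted p = 1.14e-07). The colonies of HH1 were close to each other for AFB1. In a culture, more cells that express a gene and more RNA per cell cannot be told apart.

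STE3, the receptor for a-factor, had 55.8, 62.4 and 121 CPM in HH1 against 6.69, 10.6 and 21.2 CPM in the control libraries, a log2 difference of 2.65 ± 0.25 (edgeR, adjusted p = 0.000161). SAG1, the alpha-agglutinin that holds mating cells together, had 136, 160 and 132 CPM against 32.7, 46.3 and 70.7 CPM, and its log2 difference of 1.47 ± 0.18 was the smallest of the 5 (edgeR, adjusted p = 0.00178). For each of the 5 genes the lowest HH1 colony lay above every one of the other 113 libraries of the study, both ancestors and all aneuploid lines included. Against the ancestor the log2 differences ran from 1.61 for SAG1 to 8.20 for MF(ALPHA)1, and all 5 genes were called. That fit was run on single colonies, so its p-values measure the spread between colonies and not between lines. The call of all 5 held under every alternative run.

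Of the 10 haploid-specific genes 7 rose and none fell, with a median log2 difference of 1.55 over the list against -0.02 over all genes tested. The log2 differences of the 3 subunits of the pheromone-coupled G protein ran from 1.02 to 4.64. STE18, the gamma subunit, had 53.1, 44.4 and 39.4 CPM in HH1 and 0.487, 1.79 and 2.90 CPM as the lowest, median and highest control values, a log2 difference of 4.64 ± 0.27 (edgeR, adjusted p = 3.04e-06). STE4, the beta subunit, had 56.1, 71.6 and 107 CPM against 20.6, 27.7 and 36.2 CPM, a log2 difference of 1.38 ± 0.15 (edgeR, adjusted p = 0.00058). GPA1, the alpha subunit, had 29.2, 34.9 and 70.6 CPM against 12.3, 21.1 and 24.7 CPM. All 3 colonies lay above the controls, but its log2 difference of 1.02 ± 0.20 did not pass the test at line level (adjusted p = 0.054). GPA1 was called without HH4 among the controls, with DESeq2 and with limma-voom. It was also called against the ancestor in the fit on single colonies (edgeR, adjusted p = 0.00138). Differences between the 3 subunits in their size of change were not tested.

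Signalling downstream of the G protein was represented by STE5, the scaffold of the kinase cascade, and FUS3, its MAP kinase. STE5 had 28.8, 55.2 and 95.8 CPM in HH1 against 6.87, 11.2 and 16.7 CPM, a log2 difference of 2.25 ± 0.22 (edgeR, adjusted p = 0.000188). FUS3 had 83.7, 94.8 and 99.3 CPM against 12.3, 26.3 and 44.0 CPM, a log2 difference of 1.72 ± 0.15 (edgeR, adjusted p = 0.000112). Neither gene overlapped the controls, and for FUS3, as for STE4, STE18 and RME1, no other library of the study reached the lowest HH1 colony. For STE5 6 of the other 113 libraries were higher than that colony.

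RME1, the repressor that keeps haploid cells out of meiosis, had 188, 211 and 206 CPM in HH1 and 5.04, 10.5 and 23.9 CPM in the controls, a log2 difference of 3.94 ± 0.47 (edgeR, adjusted p = 0.0013). NEJ1, a factor of non-homologous end joining, had 17.2, 15.9 and 12.3 CPM against 1.36, 3.29 and 5.84 CPM, a log2 difference of 2.08 ± 0.25 (edgeR, adjusted p = 0.00147). Elsewhere in the study NEJ1 also reached high levels, with 21 of the other 113 libraries above the lowest HH1 colony. RDH54, a DNA translocase of recombination, had 27.6, 34.9 and 71.0 CPM against 9.75, 16.6 and 35.1 CPM and overlapped the controls. Its log2 difference of 1.25 ± 0.23 was called (edgeR, adjusted p = 0.0404) but lost under 11 alternatives (adjusted p 0.0554 to 0.199).

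AXL1, a protease of a-factor processing and a determinant of axial budding, and HO, the mating-type switching endonuclease, gave no call. AXL1 had 37.2, 56.2 and 110 CPM in HH1 against 40.5, 49.6 and 67.0 CPM, with a log2 difference of 0.26 ± 0.16 (edgeR, adjusted p = 0.999). HO had 4.05, 1.80 and 2.57 CPM against 1.29, 2.09 and 5.05 CPM, with a log2 difference of 0.20 ± 0.36 (edgeR, adjusted p = 0.999). Leaving out 1 HH1 colony turned the sign of either gene, AXL1 to -0.08 without colony 3 and HO to -0.33 without colony 1.

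**Figure D2:**
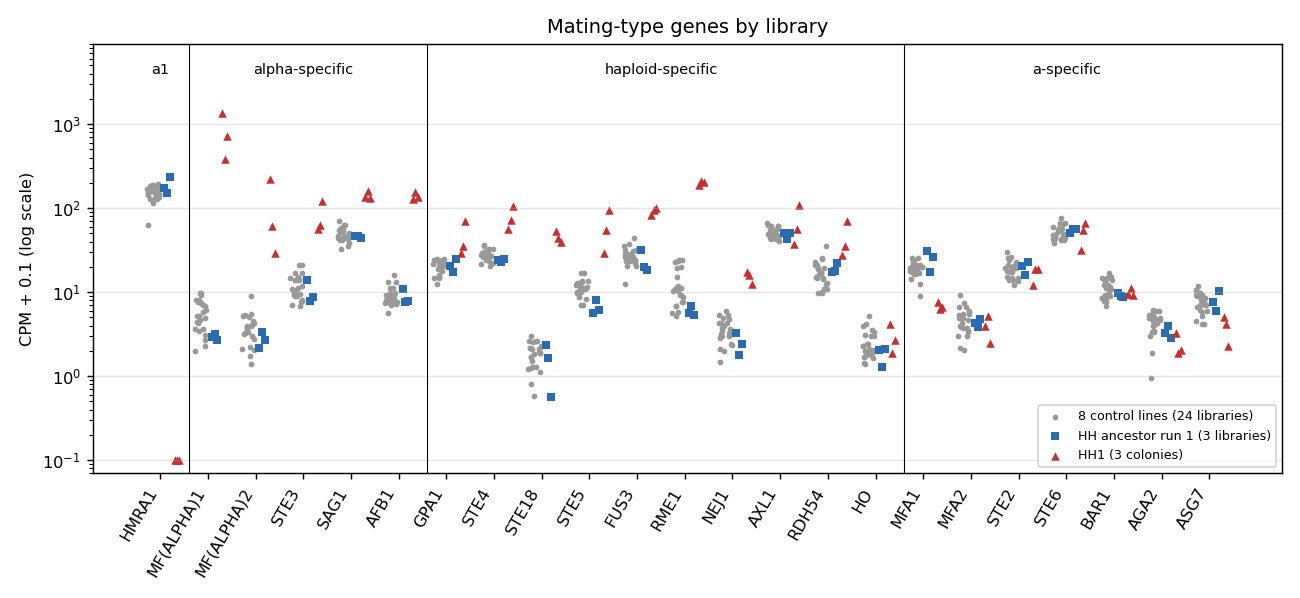
CPM plus 0.1 on a log axis for HMRA1 and the alpha-specific, haploid-specific and a-specific genes, 1 point a library, with the 24 control libraries in grey, the ancestor in blue and HH1 colonies 1 to 3 from left to right in red. HMRA1 sits at 0 reads in HH1, all 5 alpha-specific genes and 7 of the 10 haploid-specific genes were called higher, and of the a-specific genes MFA1 alone was called.

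The operator to which a1 and alpha2 bind together pairs 2 inverted half-sites. Searched as ATGT and ACAT with any 8 bases between them, a spelling that reads the same on both strands and was chosen after others had been tried, it occurred within 500 bases of the start codon in 4 of the 10 haploid-specific genes (GPA1, HO, NEJ1 and RME1) and in 73 of 6429 windows in the genome (1.14%). It also occurred before MFA1, and before none of the 5 alpha-specific genes or of the 16 called genes outside the mating and meiosis lists that have such a window. The matches are shown to set the letters of RME1 and NEJ1, which rose, beside those of GPA1 (adjusted p = 0.054) and of HO, which has 2 matches, neither of them called at line level, with the half-sites in capitals. A match is a description of these letters and not evidence of binding.
RME1, chrVII:584261-584316, minus strand: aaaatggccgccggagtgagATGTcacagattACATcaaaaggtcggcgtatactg
NEJ1, chrXII:675568-675623, minus strand: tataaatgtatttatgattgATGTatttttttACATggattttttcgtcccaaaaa
GPA1, chrVIII:115238-115293, minus strand: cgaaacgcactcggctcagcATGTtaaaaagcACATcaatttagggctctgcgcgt
HO, distal match, chrIV:48418-48473, minus strand: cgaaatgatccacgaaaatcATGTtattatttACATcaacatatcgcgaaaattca
HO, proximal match, chrIV:48378-48433, minus strand: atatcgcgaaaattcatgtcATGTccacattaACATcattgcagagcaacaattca

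All 7 a-specific genes had a log2 difference below 0 against the control lines (median -0.34), as did 3281 of the 6253 genes tested. Of the 7, 1 passed the test. Against the ancestor 6 of the 7 were below 0, with BAR1 at 0.10. MFA1, a precursor gene of a-factor, had 7.65, 6.22 and 6.53 CPM in HH1 against 8.80, 18.7 and 25.6 CPM, so that all 3 colonies lay below all 24 control libraries, and it fell by 1.53 ± 0.24 on the log2 scale (edgeR, adjusted p = 0.0117). Low MFA1 was not particular to HH1 in the study. Over the other 113 libraries its median was 8.18 CPM and its lowest level 0.472 CPM, and 62 were above the lowest HH1 colony. The deposited FPKM values gave no usable check of MFA1, since they list it at 0 in 15 of the 24 control libraries and in 2 of the 3 HH1 libraries. The other 6 had log2 differences of -1.06 ± 0.43 for ASG7, -0.94 ± 0.49 for AGA2, -0.34 ± 0.43 for MFA2, -0.29 ± 0.26 for STE2, -0.23 ± 0.26 for BAR1 and -0.11 ± 0.24 for STE6, with adjusted p of 0.935 to 0.999 (edgeR). STE2, the receptor for alpha-factor, was at 12.1 to 18.8 CPM in HH1 and 12.1 to 29.8 CPM in the controls, and BAR1, the protease that degrades alpha-factor, at 9.10 to 11.1 CPM and 6.76 to 16.8 CPM.

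Genes that pheromone itself induces did not rise as a group. None of the 22 tested of 24 was called (median log2 difference -0.02), 3 had an unadjusted p under 0.05, and DESeq2 and limma-voom called 0. FUS2, needed for cell fusion, was at 24.3, 37.5 and 34.8 CPM against 9.33, 16.3 and 24.0 CPM and did not overlap the controls, with a log2 difference of 0.93 ± 0.25 (edgeR, adjusted p = 0.291). It was called against the ancestor in the fit on single colonies, with a log2 difference of 1.50 (edgeR, adjusted p = 0.000981). FUS1, another fusion gene, was at 11.4 to 15.2 CPM in HH1 and 11.5 to 29.9 CPM in the controls. TGAAACA, the element through which Ste12 answers pheromone, occurred on either strand of the same 500 bases in 15 of the 24 genes of this list, in all 7 a-specific genes and in 12.9% of all windows. The test on single colonies against the control lines also takes the spread between colonies instead of that between lines. There FUS2 (0.96) and SST2 (0.54), a negative regulator of the G protein, were called higher. KAR4 (-0.71), a transcription factor of nuclear fusion, was called lower.

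Of the 23 genes of the pathway that are not restricted to haploid cells, 0 were called by edgeR, DESeq2 or limma-voom, and 1 had an unadjusted p under 0.05. It was STE14, the methyltransferase that matures a-factor, at 24.1, 29.0 and 34 CPM in HH1 and 7.19, 13.1 and 21.0 CPM in the controls, with a log2 difference of 1.01 ± 0.25 (edgeR, adjusted p = 0.214). Against the ancestor STE14 was called in the fit on single colonies (edgeR, adjusted p = 0.00825).

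In the meiosis list 1 of 28 genes rose. IME4, the RNA methyltransferase needed for meiosis, had 112, 201 and 286 CPM in HH1 against 40.2, 55.6 and 78.3 CPM, a log2 difference of 1.68 ± 0.15 (edgeR, adjusted p = 0.000116). Its neighbour YGL193C (chromosome VII:141916-142227, minus strand), which lies 18 bases from IME4 (142246-144048, plus strand), had 41.8, 34.2 and 61.7 CPM against 0.726, 2.09 and 4.41 CPM. That is a log2 difference of 4.37 ± 0.28 (edgeR, adjusted p = 8.17e-06). A transcript antisense to IME4 is known in haploid cells, and since no source here says whether strand was used in counting, sense and antisense reads at IME4 cannot be told apart.

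Outside these lists, 8 called genes lay further than 25 kb from a chromosome end, and all 8 were higher in HH1. They include YGL193C, given above as the neighbour of IME4. YPR027C had 57.1, 61.8 and 91.0 CPM against 1.59, 3.61 and 8.64 CPM, a log2 difference of 4.14 ± 0.32 (edgeR, adjusted p = 3.82e-05). ICS2 had 132, 148 and 185 CPM against 7.26, 15.8 and 27.6 CPM, a log2 difference of 3.12 ± 0.27 (edgeR, adjusted p = 0.0001). Neither gene was as high as in HH1 in any other library of the study, and neither has a role given in the files.

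Position linked some of these genes. NFG1, a negative regulator of filamentous growth, lies 383 bases from the alpha-specific AFB1 on the same strand of chromosome XII, and had 59.8, 48.0 and 28.3 CPM against 3.98, 6.48 and 13 CPM, a log2 difference of 2.70 ± 0.19 (edgeR, adjusted p = 1.21e-05). YLR030W and YLR031W lie 143 bases apart on the same strand of chromosome XII, with log2 differences of 1.37 ± 0.26 and 1.50 ± 0.23 (edgeR, adjusted p = 0.0493 and 0.0113). YLR030W lost its call under 10 alternatives. GFD1, a factor linked to messenger RNA export, had 183, 175 and 206 CPM against 73.2, 94.3 and 128 CPM, and its log2 difference of 0.86 ± 0.15 was the smallest called (edgeR, adjusted p = 0.0205), lost under 5 alternatives. MHF2, a histone-fold protein of DNA repair, overlapped the controls (24.7, 14.3 and 8.71 CPM against 1.73, 7.20 and 9.06 CPM), with a log2 difference of 1.26 ± 0.24 (edgeR, adjusted p = 0.0438) that was lost under 12 alternatives.

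The other 8 called genes with a position in R64 lay within 25 kb of a chromosome end, in a grouping by distance that was chosen after the values were seen and is given with no test. All 8 were higher, and 5 of them lay together at the left end of chromosome VI. YFL067W, 0.8 kb from that end, had 135, 362 and 732 CPM in HH1 against 7.91, 16.6 and 35.7 CPM, a log2 difference of 4.33 ± 0.39 (edgeR, adjusted p = 0.000107). YFL066C had 16.6, 72.2 and 117 CPM against 1.36, 3.40 and 7.39 CPM, a log2 difference of 4.04 ± 0.35 (edgeR, adjusted p = 9.64e-05). Neither gene overlapped the controls, and both varied widely between the HH1 colonies. YFL065C, YFL064C and COS4, a member of the COS family of membrane proteins, had log2 differences of 3.67, 3.66 and 2.72. The call of COS4 was lost under 5 alternatives (adjusted p 0.0516 to 0.132), and 48 of the other 113 libraries were above its lowest HH1 colony. The call of YFL065C was lost under 3 (adjusted p 0.139 to 0.979), among them leaving out HH1 colony 3. Over the 11 features tested within 15 kb of this end the median was 1.72, with a range of 0.46 to 4.33. They include YFL057C and YFL056C, both matched to AAD6 at the same position. The median is the value of YFL056C, at 85.9, 1190 and 232 CPM in HH1, which overlapped the controls (edgeR, adjusted p = 0.999). The HMR end of chromosome III had a median of 0.37 with none of its 8 genes called. Medians of the other ends ran from -0.91 (left end of X, 1 gene) to 1.32 (right end of IX, 5 genes, none called).

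**Figure D3:**
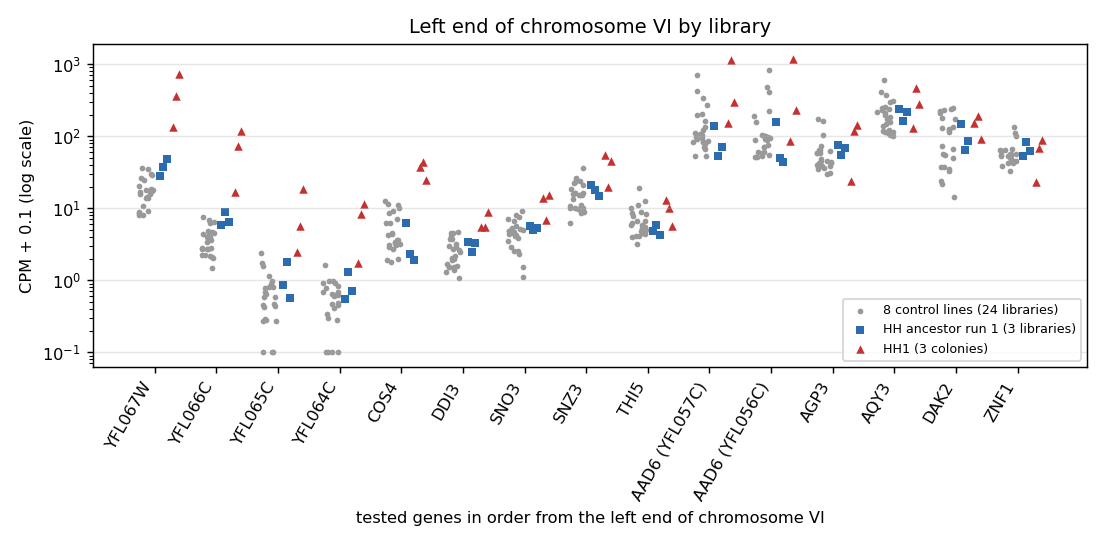
CPM plus 0.1 on a log axis for the tested genes nearest the left end of chromosome VI, in order from the end, 1 point a library, with controls in grey, the ancestor in blue and HH1 colonies 1 to 3 from left to right in red. YFL067W and YFL066C stand clear of the controls in every HH1 colony, at 135 to 732 and 16.6 to 117 CPM, as does COS4 at 24.7 to 43.4 CPM.

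The remaining 3 were YHR219W on chromosome VIII and ERR3 and SNO4 on chromosome XIII. YHR219W had 7.05, 25.4 and 58.6 CPM against 0.161, 1.32 and 4.06 CPM. ERR3, an enolase-related gene, had 2.70, 6.06 and 11.3 CPM against 0, 0.190 and 1.61 CPM, and SNO4, a chaperone-family gene, 15.7, 9.83 and 11.1 CPM against 0.336, 1.16 and 3.60 CPM. None overlapped the controls. Among the other 113 libraries, though, 21 were above the lowest HH1 colony for ERR3, up to 44.0 CPM, and 15 for SNO4, up to 131 CPM, against 0 for YHR219W. These 8 genes share sequence with other chromosome ends, with only 0.2% to 49.8% of their 75-base windows unique, so which copies gave the reads is uncertain.

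Against the control lines, the median difference was highest nearest the ends. Genes within 5 kb had a median log2 difference of 0.97, with 6 of 35 called (17.1%). At 5 to 10 kb the median was 0.32 with 2 of 49 called, at 10 to 15 kb 0.12 with 0 of 58, and beyond 50 kb -0.02 with 8 of 5113 (0.156%), all these counts leaving out the mating and meiosis lists. HH4, HH5 and HH28 had medians of -0.29, -0.09 and -0.62 within 5 kb in tests that include HH1 among their controls. The filter on low counts kept a gene that passed in any 1 line, so genes low elsewhere could enter through HH1. Such genes can raise the HH1 values near the ends and lower those of the other lines. The size of this effect was not tested. Set against its own median beyond 50 kb, the median within 5 kb was 0.89, 0.85 and 0.94 in the 3 HH1 colonies, -0.28 to 0.49 in the control libraries and 0.00, 0.34 and 0.02 in the ancestor. Kept to the 13 genes within 5 kb with at least 80% of windows unique, the values were 0.96, 1.17 and 0.51 in HH1 and -0.37 to 0.43 in the controls, and none of the 13 was called at line level. Against the ancestor the medians were lower within 5 kb and did not fall steadily, at 0.50 within 5 kb (9 of 29 called), 0.25 at 5 to 10 kb, 0.43 at 10 to 15 kb and 0.01 beyond 50 kb. Of the genes with at least 80% of windows unique, 4 of 12 within 5 kb were called there.

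**Figure D4:**
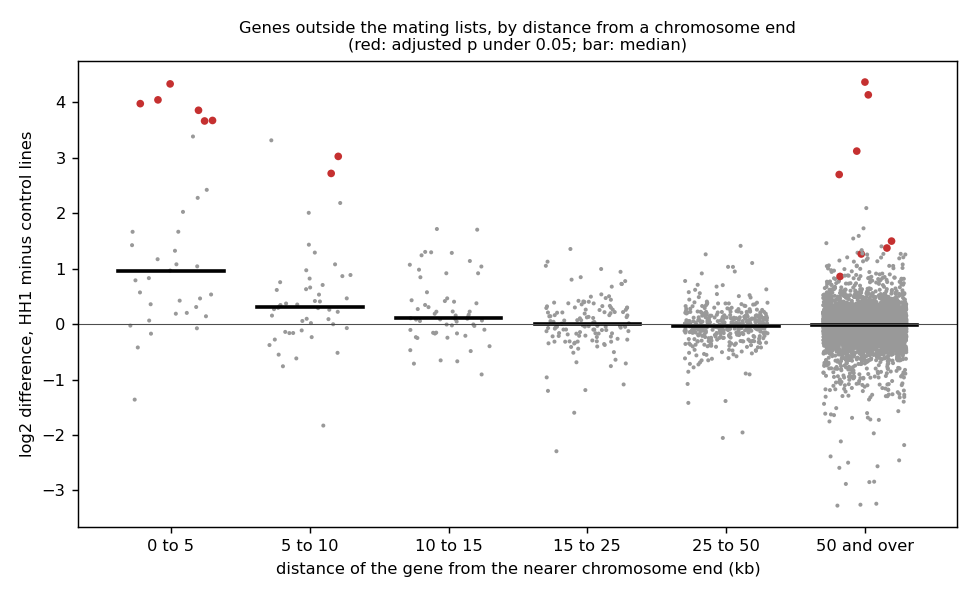
The log2 difference of HH1 from the control lines (vertical axis) is plotted for genes outside the mating and meiosis lists by distance from the nearer chromosome end in kb (horizontal axis), 1 point a gene, with called genes in red and a bar at the median. Medians fell from 0.97 within 5 kb to -0.02 beyond 50 kb, and 6 of the 35 genes within 5 kb were called.

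Transcripts of silencing factors were set beside these values in a list added after the data were seen. Of 17 genes 0 were called at line level, none had an unadjusted p under 0.05, and DESeq2 and limma-voom called 0. SIR2, the silencing deacetylase, was at 29.5, 26 and 56.6 CPM against 11.3 to 45.9 CPM in the controls, a log2 difference of 0.61 ± 0.36 (edgeR, adjusted p = 0.999), and was called higher in the test on single colonies (0.69, adjusted p = 0.0319). SIR3 and SIR4, the structural silencing proteins, had log2 differences of 0.18 ± 0.21 and 0.38 ± 0.22.

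A further 5 called features have no position in R64 under the names in the files. YFL063W had 8.39, 9.66 and 4.55 CPM in HH1 and at most 0.48 CPM in any control library, and YNL337W, YBL109W and YDR048C were also called higher at 1.05 to 6.75 CPM. YDR048C overlapped the controls, whose highest library was at 1.2 CPM, and lost its call under 3 alternatives (adjusted p 0.529 to 0.761), among them leaving out HH1 colony 2. The fifth, YCR097W-A, was lower, as given above with a1. These low levels rest on few reads, and the filter on low counts let a gene enter through HH1 alone.

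The other 27 lists, among them the shared pheromone pathway, metabolism, translation, chaperones and stress, gave no call in 758 genes tested. Of these, 26 had an unadjusted p under 0.05 (16 higher, 10 lower), limma-voom called 0 and DESeq2 called 4. Those were ALD3 (1.72), GRE1 (1.58) and DDR2 (1.04) of the stress list and TDH2 (-0.97), a glycolytic dehydrogenase. ALD3, an aldehyde dehydrogenase, was at 71.5, 644 and 229 CPM in HH1 against 45.5, 73.2 and 202 CPM, so colony 1 lay near the control median. GRE1, a hydrophilin of the stress response, was at 220, 503 and 842 CPM against 57.9, 130 and 309 CPM. Over all genes tested, 3281 of 6253 lay below the controls at line level. The lowest median of these lists was that of glycolysis and fermentation, at -0.49 with 18 of 20 genes below. Against the ancestor the median of that list was 0.10. Of 137 ribosomal protein genes 130 lay below the controls (median -0.27), and 32 of 35 respiratory chain genes did (median -0.20), with none called in either list by edgeR, DESeq2 or limma-voom at line level and none at an unadjusted p under 0.05. In the test on single colonies the ribosomal median was -0.13, with 115 of 135 below, against 0.03 over all genes there.

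**Figure D5:**
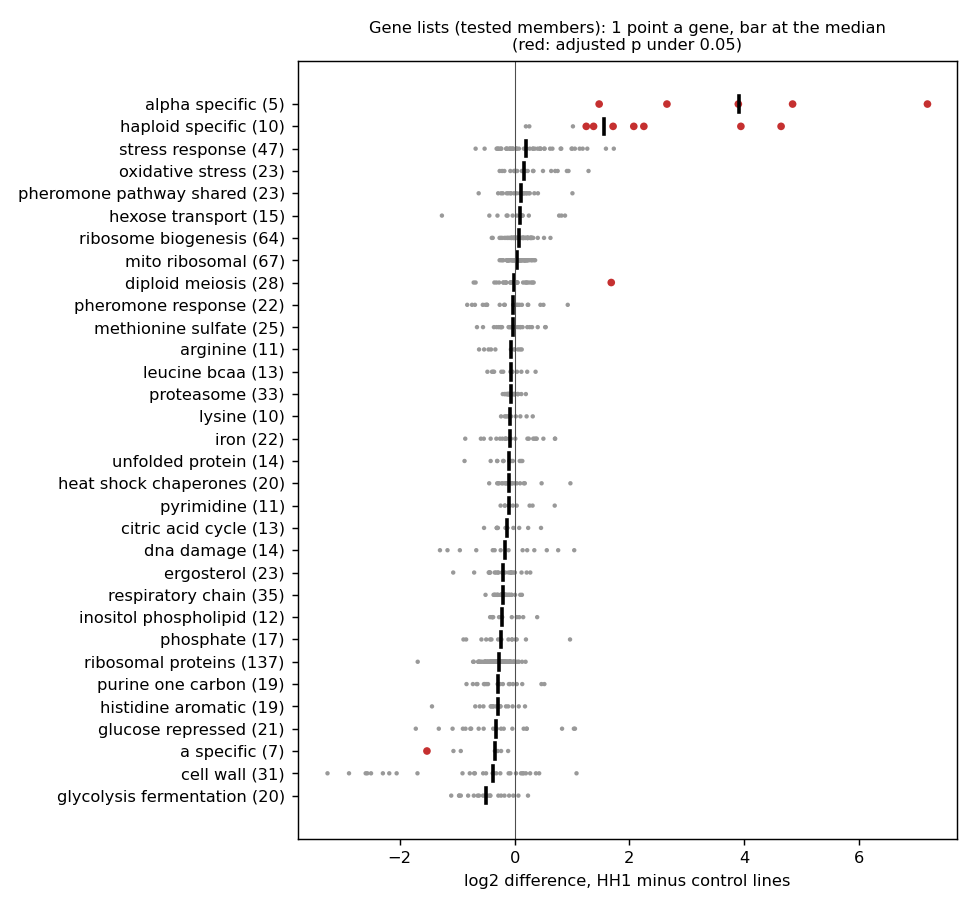
The log2 difference of HH1 from the control lines (horizontal axis) is plotted for the tested members of each gene list, 1 point a gene, with called genes in red and a bar at the median, lists in order of their medians. The alpha-specific and haploid-specific lists stand at 3.90 and 1.55, and the medians of the other lists drawn lie between -0.49 and 0.20.

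Against the ancestor of the experiment, the fit on single colonies called 76 of 6008 genes (1.26%), 64 higher (1.07%) and 12 lower (0.2%), and included 30 of the 36 genes called against the control lines. RDH54, MHF2 and YBL109W were tested there and not called (adjusted p 0.0583, 0.0878 and 0.052), and YFL064C, YDR048C and YCR097W-A were removed by the filter on low counts. The alpha-specific genes were again called in 5 of 5 cases, the haploid-specific genes in 7 of 10 and MFA1 lower (log2 difference -1.87; edgeR, adjusted p = 0.000383). Both comparisons use the same 3 HH1 libraries. The test on single colonies against the mean of the control lines called 170 of 5994 genes (2.84%), 145 higher (2.42%) and 25 lower (0.417%), and included 33 of the 36. The p-values of both fits on single colonies measure the spread between colonies and not between lines. The count of 170 was 93 without colony 2 of HH1 and 425 without colony 1.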

How the data were processed

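The authors deposited 1 file a library with raw counts, whole numbers of reads for each gene; the submitters' processing notes name Trim Galore 0.4.4, TopHat2 2.1.1, HTSeq 0.6.1pl and build sacCer3. The deposited FPKM table (fragments scaled to gene length and depth) comes from the authors too, and the notes name Cufflinks and Cuffnorm 2.2.1; FPKM entered as an alternative only, as log2(FPKM + 1) or log2(FPKM + 0.1) in limma. Settings and strand handling are not given in the sources used here. Reads in no gene (2.21% to 9.99% of a library) and reads not aligned uniquely (19.07% to 21.76% in HH1) entered neither library sizes nor tests.

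Groups follow the titles; the descriptions of HH2 replicates 2 and 3 name other lines. Counts were tested with edgeR 4.0.16 (R 4.3.3; TMM, filterByExpr, robust quasi-likelihood, Benjamini-Hochberg adjustment over all genes tested, threshold 0.05), summed over the 3 colonies of a line as the main test. Alternatives used DESeq2 1.42.0, limma 3.58.1, other scalings and filters, and left-out colonies and lines. The tests were first tested on simulated data. Changes were put only into genes above a set mean level, and HH1 was given the same spread as the controls. Recovery at the lowest levels was thus not measured. On these data the line-level test recovered 31.8% of changes of 1 on the log2 scale, 94% of changes of 2 and 98.5% of changes of 4. It made 10 false calls over 6219 genes. A gene without a call at line level may therefore still have changed by 1 on the log2 scale. CPM is not per length and is compared only within a gene.

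Named genes are all members of the MAT, a-, alpha- and haploid-specific lists, called members of the pheromone and meiosis lists, the called genes with the largest changes outside them (up to 12 each way), and the extremes of each other list; FUS1, FUS2, SST2, KAR4, DDR2, the silencing factors and the rest of the called genes were named after their values were seen. Members and lists were chosen with earlier results of these data known. Of 7126 features 6086 matched the R64 annotation (the assembly of sacCer3), which gave positions and sequences from RefSeq.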

Additional observations from a re-analysis of the deposited data

Results flagged for a closer look

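Of 99 genes examined, 12 had 1 control line far from the other 7 (Dixon's test on the CPM of the 8 lines). Chance gives about 1 in 20 for independent and normally distributed values, which CPM of genes from the same lines need not be. HH4 was the high line in 9 of the 12. It had 73.4 CPM of IME4 (the others 50.2 to 60.5), 7.19 of YPR027C (2.35 to 4.57), 11.4 of HXT9 (3.75 to 6.25) and 169 of ALD3 (54.1 to 101). It also had 292 CPM of RPN9 (the others 189 to 233), 427 of PRE4 (299 to 341), 94.0 of SEO1 (25.6 to 45.5), 160 of LYS21 (82.0 to 115) and 167 of TSA2 (96.6 to 114). HH8 had 76.7 CPM of NOP1 (28.2 to 48.4), HH11 340 CPM of FIT2 (172 to 231) and HH5 396 CPM of CRH1 (180 to 280). For IME4 and YPR027C the HH1 colonies lay above HH4 as well.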

How the results depend on the processing

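The line-level count of 36 was 61 with DESeq2, 69 without HH4, and 20 over genes with at least 80% of windows unique, a setting added after seeing the data that tests fewer genes. It ran from 31 to 69 with 1 colony or control line left out, and HH2 kept to replicate 1 gave 35. Against the ancestor the count of 76 was 129 with DESeq2 and 43 to 232 with 1 library left out (128 without HH1 colony 1, 232 without colony 3, and 119, 47 and 43 without ancestor replicates 1, 2 and 3). On single colonies, 170 became 93 to 425. The cause of these moves was not tested. The replicate numbers did not pair the colonies, since same-numbered pairs correlated by -0.426 to 0.568 (median 0.00878); with a replicate block the counts were 167 in place of 170 and 71 in place of 76. Signs turned, all without a call, without HH1 colony 1 for STE6 (log2 difference 0.05, lowest value with 1 colony left out -0.22) and HO (-0.33, highest 0.42). Without colony 3 they turned for MFA2 (0.01, lowest -0.63), AXL1 (-0.08, highest 0.47), NOP1 (-1.07, highest 1.06), RRP5 (-0.72, highest 0.75), PRE4 (0.01, lowest -0.35), MET8 (-0.06, highest 0.78) and URA3 (0.07, lowest -0.50). Haploid-specific calls numbered 6 to 8 of 10 and called genes near chromosome ends 0 to 15 at line level. The FPKM columns of HH1 colonies 1 and 3 each matched the counts of the other (r = 0.94 and 0.96), so the colony order may differ there. Depth limits the lowest features.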
